A study of Mus musculus with 2 samples.

Results

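Heme breakdown, iron export and iron storage were followed through 10 genes: Hmox1, Hmox2, Blvra, Blvrb, Slc40a1, Slc48a1, Flvcr1, Fth1, Ftl1 and Hp. They are 10 of the 20659 genes that the array names through RefSeq accessions, and all 10 were among the 10223 genes measured on both arrays. The genes were chosen by their role, with their differences between the same arrays already known, so the values below are a description and no count of these genes supports a wider statement. The 10 genes carry 14 probes, each printed once, and every probe was well above background on both arrays.

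The samples were mouse blood cells of the E13.5 fetal liver, sorted by the F405/F488 fluorescence ratio of SoNar, a genetically encoded sensor of the cytosolic NADH/NAD+ state. The SoNar-high group (strain labelled C57BL/6) had a high ratio and the SoNar-low group (strain labelled C57BL) a low one, and the labels name no other allele or treatment and no number of pooled animals. Total RNA of each group was hybridised to 1 Agilent 1-colour array, so there were 2 arrays and 1 per group. The question addressed is how transcript levels relate to the sensor state, and without replicates the comparison has no test and no replicate error.

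Heme is opened by heme oxygenase to biliverdin, carbon monoxide and ferrous iron, and biliverdin is reduced to bilirubin by biliverdin reductases. The iron is stored in ferritin, a shell of heavy and light chains, or leaves the cell through ferroportin, the product of Slc40a1. In the fetal liver, macrophages at the centre of erythroblastic islands engulf the nuclei that maturing erythroblasts expel and recycle heme iron, while the erythroblasts themselves take up iron to make hemoglobin.

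A difference below is the log2 signal of the SoNar-high array minus that of the SoNar-low array, each first divided by its own 75th percentile. A value above 0 is therefore higher in the SoNar-high cells, and 1 is 2-fold. The percentile was 186.5 scanner units for SoNar-high and 222.2 for SoNar-low cells, and the scaling therefore adds 0.25 (log2) to every raw log ratio. The scanner called 49.4% of the SoNar-high and 42.4% of the SoNar-low spots well above background, and it marked none as saturated. Across 213 measured probes printed 10 times, the SD of the log2 difference between spots had a median of 0.15. The scanner's own error estimate for the difference of a probe lay between 0.20 and 0.29 for the 14 probes. Both figures cover spot and scanner error only and not the spread between animals, sorts or labelling reactions.

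Of the 10 genes, Hmox1, Slc40a1 and Hp were at least 2-fold higher in SoNar-high cells and none was at least 2-fold lower. Among all 10223 measured genes, 5.28% (540 genes) passed 2-fold upward and 4.44% (454 genes) downward. With the percentile taken over detected probes these counts became 817 and 227, and after loess 649 and 347. The other 7 genes lay within 2-fold. Closest to the limit were Hp at 1.01 among the 3 genes that passed it and, among the 7 that did not, Flvcr1 at -0.82, followed by Blvra at 0.67 and Fth1 at 0.64. The median difference of the 10 genes was 0.43, beside -0.08 for all measured genes. A difference above 0 was seen for 9 genes, but 4 of these (Hmox2, Blvrb, Slc48a1 and Ftl1) had a lower unscaled signal on the SoNar-high array, so their sign rests on the scaling, and Ftl1 was at -0.01 after normexp background correction.

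**Figure D1:**
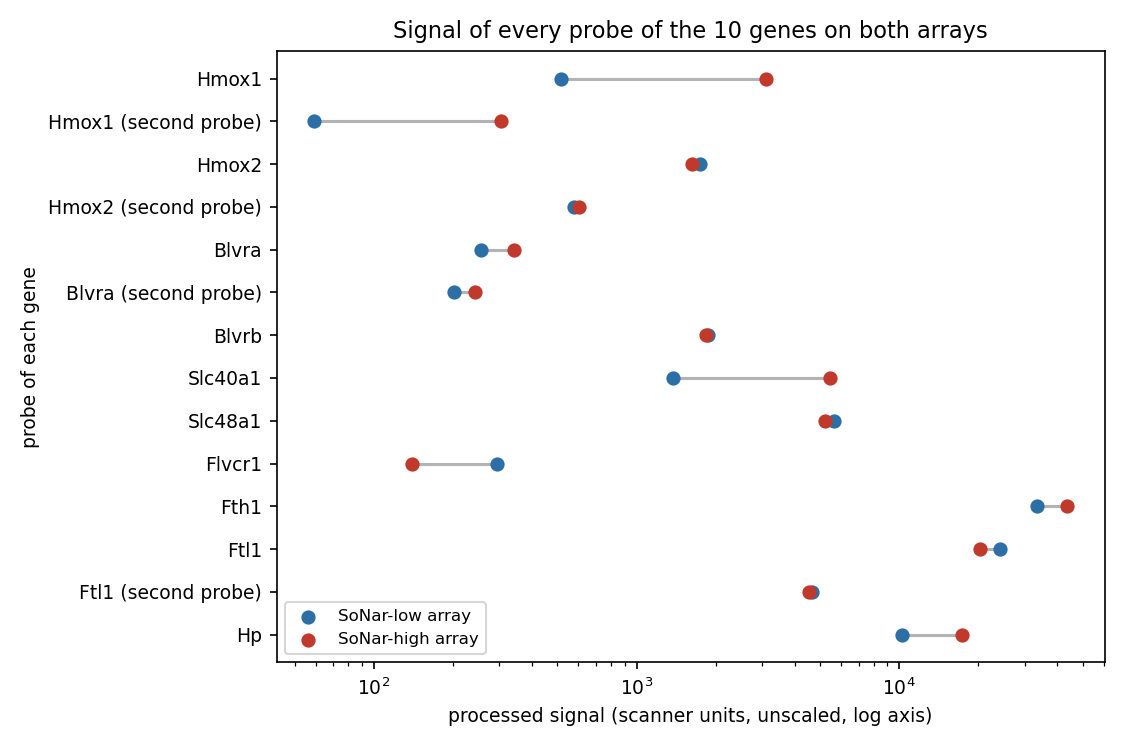
Processed signal in scanner units (log axis, before scaling) of each of the 14 probes on the SoNar-low (blue) and SoNar-high (red) array, joined by a line; the signals of different probes are not comparable with each other. Wide gaps with the red point on the right are seen for Hmox1 and Slc40a1, and Flvcr1 has the red point on the left.

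The heme oxygenases differed from each other. Hmox1 encodes the inducible heme oxygenase, and its brighter probe read 3101 units in SoNar-high and 517 in SoNar-low cells. That is a difference of 2.84, or 7.15-fold, which placed Hmox1 as number 10 of 10223 measured genes ordered from the largest positive difference. The second Hmox1 probe read 305 against 59.3 units, a difference of 2.62. Both probes therefore pointed the same way by a similar amount, although the dimmer one shrank to 1.61 after normexp background correction while the brighter one stayed at 2.75. Over 11 alternative ways of processing, the difference of Hmox1 stayed between 2.73 and 3.05.

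Hmox2, the constitutive isoenzyme that catalyses the same step, read 1626 units in SoNar-high and 1739 in SoNar-low cells. After scaling its difference was 0.16, within the scanner's error estimate of 0.20. A second probe of Hmox2 read 603 against 576 units, a difference of 0.32. Whether Hmox2 differed at all was not resolved at this precision, and neither of its probes came near 2-fold under any of the settings tried.

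The reductases downstream of heme oxygenase differed less than Hmox1. Blvra, biliverdin reductase A, which makes bilirubin from the main biliverdin isomer, read 342 against 257 units, a difference of 0.67, and its second probe read 242 against 202 units, a difference of 0.51. Each Blvra value was above its scanner error estimate (0.21 and 0.22). Blvrb, the flavin reductase that acts on another biliverdin isomer and is abundant in red cells, read 1844 against 1879 units. Its scaled difference of 0.23 was close to its scanner error of 0.20. None of the 3 reductase probes reached 2-fold, so of the heme breakdown genes only Hmox1 did.

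The genes of iron and heme transport went separate ways. Slc40a1, ferroportin, exports ferrous iron from the cell and had 5462 units in SoNar-high against 1373 in SoNar-low cells. The difference of Slc40a1 was 2.25, or 4.74-fold, with a scanner error of 0.20 and a range of 2.22 to 2.47 over the alternatives, and it was number 35 of the 10223 genes. Only a single probe represents it, so no second probe checks the value.

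Slc48a1 (HRG1) moves heme from the lysosome to the cytosol of macrophages that have taken up red cells. It read 5204 against 5659 units, and its scaled difference of 0.13 was within the scanner error of 0.20. The genes for release of heme from the lysosome and for export of iron from the cell thus had unlike differences in these arrays. Flvcr1, described as a heme exporter and choline transporter, was the sole gene of the 10 below 0. It read 139 units in SoNar-high and 294 in SoNar-low cells, a difference of -0.82, so SoNar-low cells were 1.77-fold higher. Before the scanner's multiplicative detrending, which corrects for position on the slide, Flvcr1 was at -1.03 and past 2-fold.

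Of the ferritin chains, the heavy one had the larger difference under the main scaling. Fth1, the heavy chain with the ferroxidase activity, read 43540 against 33299 units, a difference of 0.64 or 1.56-fold. Ftl1, the light chain, read 20357 against 24108 units and had a scaled difference of 0.01, and its second probe read 4551 against 4671 units, a difference of 0.22. The 3 ferritin probes thus lay between 0.01 and 0.64, with the heavy chain highest. After quantile normalization Fth1 was at 0.55, the second Ftl1 probe at 0.44 and the brighter Ftl1 probe at 0.01. The size of the contrast between the chains therefore depended on the Ftl1 probe and on the processing. Ferritin genes have close copies and pseudogenes, so these probes may bind more than the named transcript, and ferritin output is largely set by translation, which an array does not read.

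Hp encodes haptoglobin, which binds free hemoglobin in plasma, and is made by hepatocytes and by developing neutrophils. It read 17382 units in SoNar-high and 10287 in SoNar-low cells, a difference of 1.01 or 2.01-fold. The distance of Hp from the 2-fold limit is far smaller than its scanner error of 0.20, although it stayed between 1.00 and 1.19 under every alternative tried. At number 533 of 10223 genes its difference was also much smaller than those of Hmox1 and Slc40a1.

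**Figure D2:**
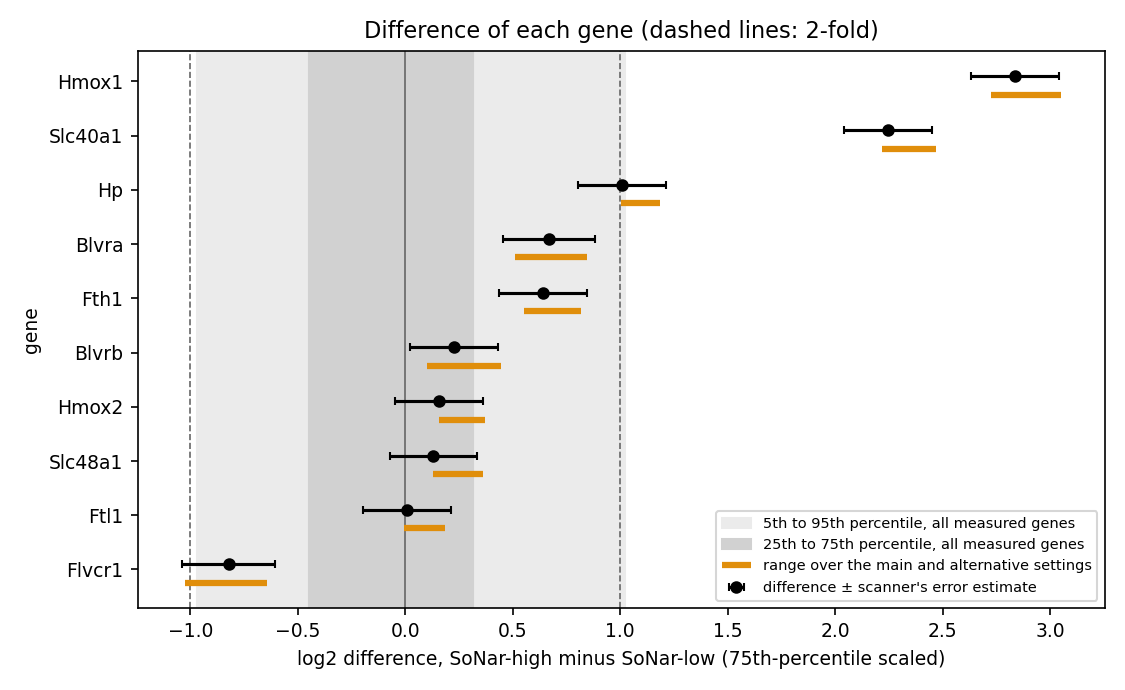
Log2 difference of each gene (points, SoNar-high minus SoNar-low, brightest measured probe) with the scanner's error estimate (bars) and the range over the main and alternative settings (orange), over the 5th to 95th (light grey) and 25th to 75th (dark grey) percentile of all measured genes. Hmox1 at 2.84 and Slc40a1 at 2.25 lie beyond the 95th percentile of 1.02, Hp at 1.01 lies at its edge, and Flvcr1 at -0.82 is inside the 5th percentile of -0.97.

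Where a gene had 2 probes, they agreed closely under the main scaling. The spread between probes was 0.22 for Hmox1, 0.16 for Hmox2, 0.16 for Blvra and 0.21 for Ftl1. Over the 2021 genes with more than 1 measured probe the median spread was 0.41, and 11.3% of them had probes more than 1 apart. After normexp the 2 Hmox1 probes lay further apart, at 2.75 and 1.61. So did the 2 Ftl1 probes after quantile normalization, at 0.01 and 0.44. The remaining 6 genes, including Slc40a1, Hp and Flvcr1, rest on 1 probe and 1 spot per array.

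**Figure D3:**
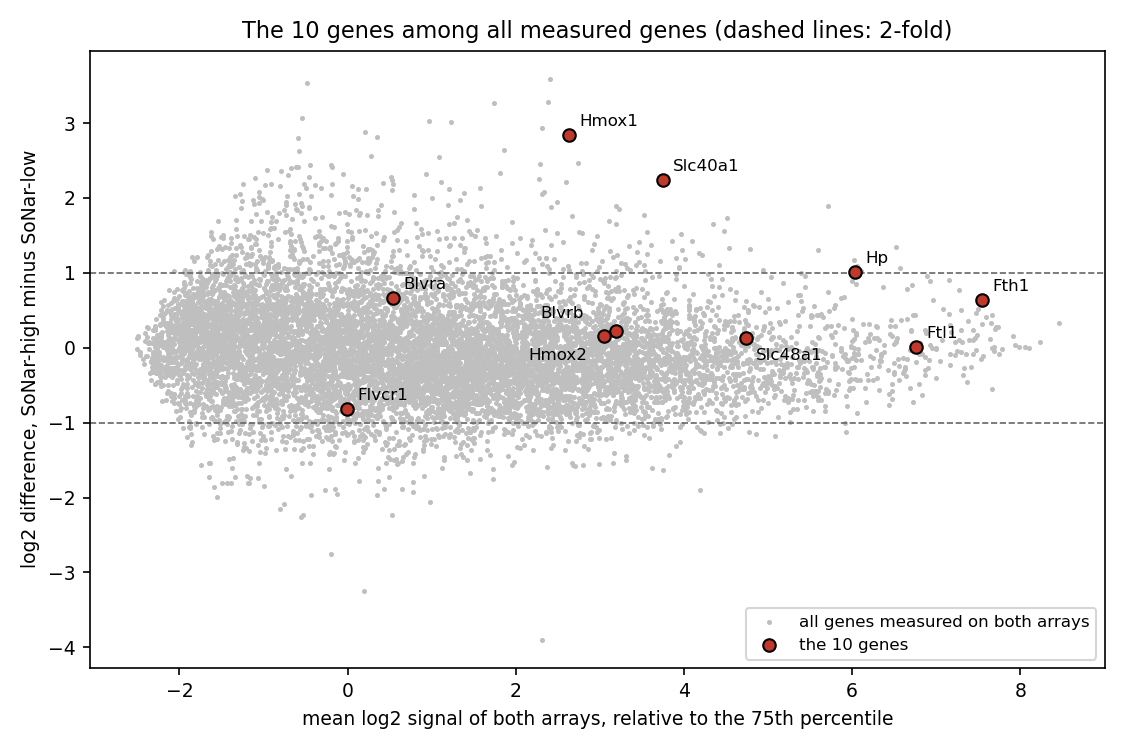
Log2 difference (vertical) against mean log2 signal relative to the 75th percentile (horizontal) for all 10223 genes measured on both arrays (grey), with the 10 genes in red and the 2-fold limits dashed. Hmox1 and Slc40a1 stand at the upper edge of the cloud, while Hmox2, Blvrb, Slc48a1 and Ftl1 lie in its body close to 0.

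The antioxidant response element is the site through which Nrf2 raises, and Bach1 represses, Hmox1 and other genes of heme and iron handling. RefSeq promoter windows (GRCm38.p6, 250 bases before to 50 after a start site) were at hand for 6 of the 10 genes, in 10 windows. Hmox1, Slc40a1, Slc48a1 and Hp had none. The core TGACNNNGC, searched on both strands, was found for Flvcr1 and Blvra and for none of the other 4 genes, and 12.4% of all 32851 windows hold it. The 250 bases before their start sites are shown because these were the genes with a match, 5′ to 3′ on the strand of the gene, with the core in capitals. For Flvcr1 (chr1:191026191-191026440, minus strand) the core begins at position -151 from the start. For Blvra (chr2:127070407-127070656, plus strand) it begins at -49 and lies on the opposite strand, so the capitals are its reverse complement.
Flvcr1: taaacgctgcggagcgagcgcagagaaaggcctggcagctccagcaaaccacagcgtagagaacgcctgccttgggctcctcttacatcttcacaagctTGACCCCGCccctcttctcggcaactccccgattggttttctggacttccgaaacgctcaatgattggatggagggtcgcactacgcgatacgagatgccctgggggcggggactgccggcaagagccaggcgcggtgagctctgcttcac
Blvra: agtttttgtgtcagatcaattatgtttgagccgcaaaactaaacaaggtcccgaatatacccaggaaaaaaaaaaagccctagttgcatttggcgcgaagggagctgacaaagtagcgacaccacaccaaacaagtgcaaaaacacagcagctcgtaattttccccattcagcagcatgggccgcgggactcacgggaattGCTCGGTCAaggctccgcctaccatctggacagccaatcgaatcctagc
The genes with this core had opposite differences, -0.82 for Flvcr1 and 0.67 for Blvra. The E-box CACGTG (in 7.15% of all windows) and the GATA site AGATAA (11.2%), both searched on both strands, were in none of the 10 windows. Nor was CAGTG, the loop of the iron responsive element, on the transcript strand within 50 bases after a start, where 7.20% of all windows hold it. A loop further along the transcript, or after another start site, would be missed. The search therefore cannot show that a transcript, such as those of Fth1 and Ftl1, lacks the element. A match is a string of letters and not a shown binding site.

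The genes listed around Bach1 and Nrf2 were mostly close to 0. Of 9 listed genes (Bach1, Nrf2, their partners and Spic), 7 were measured on both arrays, with 4 above 0, 3 below 0 and a median of 0.08. By the brightest probe of each gene, none of them passed 2-fold upward and 1 did downward. That gene was Maff, a small Maf partner, at -1.31 (317 against 933 units), which was within 2-fold after normexp at -0.96. Bach1, the heme-sensing repressor of Hmox1, read 327 against 492 units and had -0.34. The difference of Bach1 shrank to -0.12 after normexp and to -0.09 before multiplicative detrending. Nfe2l2, the gene of Nrf2, had 774 against 764 units and 0.27 after scaling, which turned to -0.10 after normexp. Mafk had 0.42, and Mafg, the brightest of the list, had 0.25. The 3 probes of Mafg lay between 0.25 and 1.41, and their median of 1.31 put Mafg past 2-fold upward. Spic, a transcription factor of iron-recycling macrophages, cleared background in SoNar-high cells alone, with 103 units against 8.69. This makes Spic at least 3.31-fold higher in SoNar-high cells, a bound taken against the lowest signal well above background on the dim array or the dim probe's own, whichever is higher. The bound was 1.76-fold after normexp.

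Other targets of Nrf2 differed less than Hmox1. Of 12 listed genes, 8 were measured, 1 was higher and none lower by 2-fold or more, and the median was 0.28. G6pdx, the enzyme of the committed step of the pentose phosphate pathway, had 1.31 (4614 against 2224 units). Gsr, glutathione reductase, had 0.74 and its second probe 0.19. Gclm, the modifier subunit of glutathione synthesis, had 0.45, while Taldo1, the brightest of the list, had 0.31. Nqo1 was dim and cleared background in SoNar-high cells alone, with a bound of 1.02-fold.

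Genes of hemoglobin and heme capture were higher in SoNar-high cells, mainly through plasma proteins of hepatocytes. Of 5 listed genes, 3 were measured, and 2 of these were at least 2-fold higher: Alb, albumin, which binds heme, at 1.86 (3324 against 1094 units) and Ambp, the precursor of the heme-binding alpha-1-microglobulin, at 1.48 (323 against 138 units). Lrp1, the receptor of hemopexin-bound heme, had 0.48. Hpx, hemopexin itself, cleared background in SoNar-high cells alone, with 95.3 against 31.7 units and a bound of 3.06-fold, which was 1.71-fold after normexp. Cd163, the macrophage receptor of the haptoglobin-hemoglobin complex, was not well above background on either array.

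Of 14 other iron and heme transporters and oxidases, 10 were measured, with a median of 0.70, and 2 of them were higher and none lower by 2-fold or more. Slc11a1 (Nramp1), which moves iron out of the phagosome of macrophages, had 2.28 (589 against 144 units), close to the 2.25 of Slc40a1. After normexp Slc11a1 was at 1.67. Trf, transferrin, had 1.42, with its second probe at 1.02. Slc25a37 (mitoferrin 1), the mitochondrial iron importer of erythroid cells, had 0.95 and its second probe 1.56, and 6 of the alternatives put Slc25a37 past 2-fold. It had 1.13 with the percentile and 1.01 with the median over detected probes, 1.15 after quantile normalization and in the deposited table, 1.12 after loess, and 1.26 as the median over its probes. Tfrc, the transferrin receptor, had 0.25 and its second probe -0.18. Cp, ceruloplasmin, a ferroxidase that works with ferroportin, cleared background in SoNar-high cells alone with a bound of 2.24-fold, or 1.45-fold after normexp.

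The hepcidin axis, which sets how much ferroportin protein stays on the cell surface, was mostly dim. Hamp and Hamp2, the hepcidin genes, and 3 other of the 10 listed genes were not well above background on either array. Bmp2 cleared it in SoNar-high cells alone. The 4 genes measured on both arrays lay within 2-fold, with a median of 0.45. Neo1 had 0.92 (0.34 after normexp, past 2-fold with the percentile over detected probes), Hfe 0.61, Tfr2 0.28 and Id1, a BMP target, -0.14. Of the 8 genes of iron sensing and ferritin turnover, 5 were measured and all 5 lay within 2-fold, with a median of 0.12. Fbxl5, the iron-sensing subunit that marks iron regulatory protein 2 for breakdown, had 0.82, and it was just past 2-fold with the percentile taken over detected probes (1.00) and after loess (1.03). Herc2, a ubiquitin ligase, had -0.91 and was past 2-fold before multiplicative detrending (-1.07) and after normexp (-1.03). Ncoa4, the receptor that takes ferritin to the lysosome, had -0.33, and Pcbp1, an iron chaperone of ferritin, had 0.12. Aco1 and Ireb2, the iron regulatory proteins, were not well above background on either array.

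**Figure D4:**
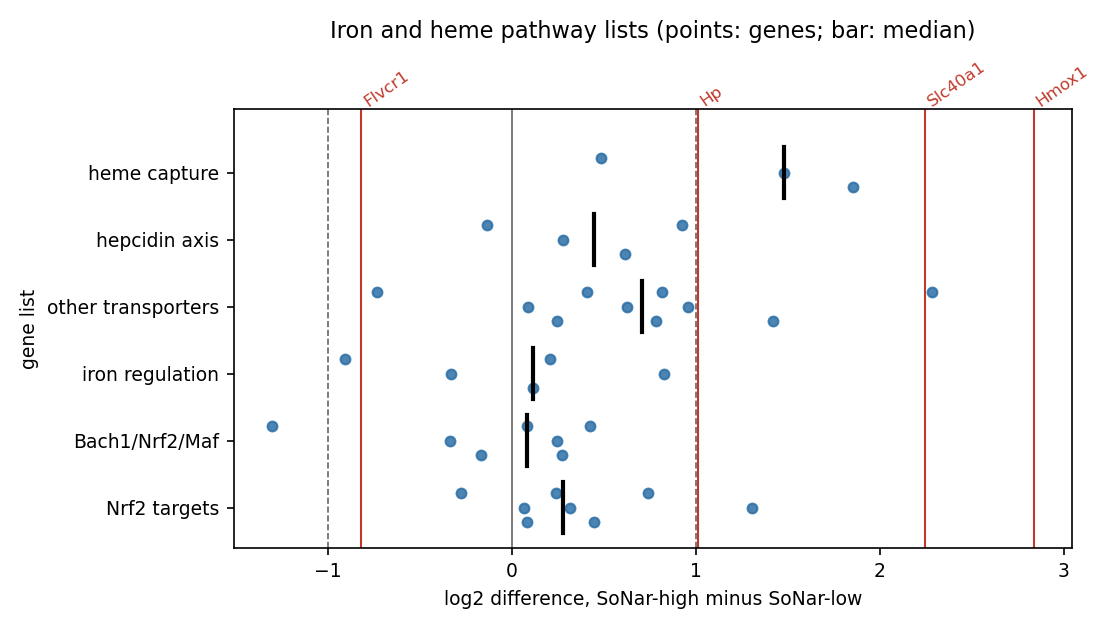
Log2 differences of the measured genes of 6 iron and heme lists (points) with each list's median (bar), beside the differences of Hmox1, Slc40a1, Hp and Flvcr1 (red lines) and the 2-fold limits (dashed). Slc11a1 at 2.28 is the only listed gene at the level of Slc40a1, none reaches Hmox1, and most genes lie within 2-fold.

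Markers of several cell types differed between the arrays along with these genes. Of 14 macrophage markers, 13 were on the array as named probes, 9 were measured, and 8 of the 9 were at least 2-fold higher in SoNar-high cells, with a median of 2.93. Their summed signal before scaling was 18999 against 8595 units, of which Csf1r, the brightest, gave 5979 and 6309. This sum, like those below, adds probes that are not comparable with each other, so bright probes weigh most. Hmox1 and Slc40a1 lay inside the range of these markers, which ran from 0.18 for Csf1r to 3.59 for Marco, with 5 markers above Hmox1 and 6 above Slc40a1. The order changed after normexp, where the median of the markers was 2.31 and Hmox1 was at 2.75. Marco (3.20) and C1qc (3.01) then stayed above Hmox1, while C1qa, Vcam1 (2.47) and Cd5l (2.51) fell below it. C1qa had 3.54 (2.31 after normexp) and C1qc 3.29, and Timd4 and Axl cleared background in SoNar-high cells alone, with bounds of 8.07-fold and 6.35-fold (3.43-fold and 2.71-fold after normexp). Siglec1 and Mertk were not well above background on either array. The part of the macrophage markers in the differences of Hmox1 and Slc40a1 was not tested, and in bulk RNA more cells of a type and more RNA per cell cannot be told apart.

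Erythroid markers were higher too, but none of the 9 measured ones exceeded Hmox1 or Slc40a1. They lay between 0.95 for Epor and 2.07 for Trim10 with a median of 1.55, 8 of 9 were at least 2-fold higher (6 of 9 after normexp), and their summed signal was 15434 against 6844 units. Rhag, the other listed gene, cleared background in SoNar-high cells alone. Slc4a1, the red cell anion exchanger, had 1.55, and Epb42 had 1.93 (1.11 after normexp). Blvrb, which red cells carry in quantity, had 0.23 and lay below all 9 of these markers.

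Markers of the sources of haptoglobin differed by unlike amounts. All 10 neutrophil markers were measured, 4 were at least 2-fold higher, their median was 0.75 and their summed signal 210213 against 164473 units. Hp at 1.01 lay next to Ltf (lactoferrin, 1.07) and S100a8 (0.84), below Mmp8 at 2.46 and Lcn2 at 1.89, and above S100a9 at 0.44 and Ngp at -0.19. Ltf and S100a8 are named here because they are the nearest neighbours of Hp in this list. Of 9 hepatoblast markers 7 were measured, 5 of them at least 2-fold higher, with a median of 1.86 and a summed signal of 12477 against 5245 units. Afp had 5215 against 2319 units and Alb 3324 against 1094, so hepatocyte transcripts were detected on both arrays although the samples are labelled as blood cells. Ttr cleared background in SoNar-high cells alone, Apoa1 in neither. The part of either cell type in the difference of Hp was not tested.

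Most endothelial markers were higher as well. Of the 6 measured genes 4 passed 2-fold upward, and their list had its median at 2.27. Pecam1 was near 0 at 0.01. Egfl7, the brightest of the list, was lower at -0.31 (2604 against 3843 units) and stayed below 0 under every alternative. The summed signal of the 6 was 6351 against 4855 units, and Tek cleared background in SoNar-high cells alone. On the other side, with Flvcr1, lay the stem and progenitor markers, whose 6 measured genes were all below 0 with a median of -0.88 (2 of 6 at least 2-fold lower, summed signal 2672 against 4897 units, Mecom not well above background on either array). All 6 B lymphoid markers were below 0, 5 of them by 2-fold or more, with a median of -1.55 and a summed signal of 3461 against 13064 units. Of 6 measured natural killer and T markers 4 were lower by 2-fold or more and 2 were above 0, with a median of -2.07. The 2 were Cd3e at 0.87 and Nkg7, the brightest of the list, at 0.22, with its second probe at 0.50. The summed signal of the 6 was 1989 against 7566 units, and Il2rb cleared background in SoNar-low cells alone. The part of these cells in the difference of Flvcr1 was not tested.

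**Figure D5:**
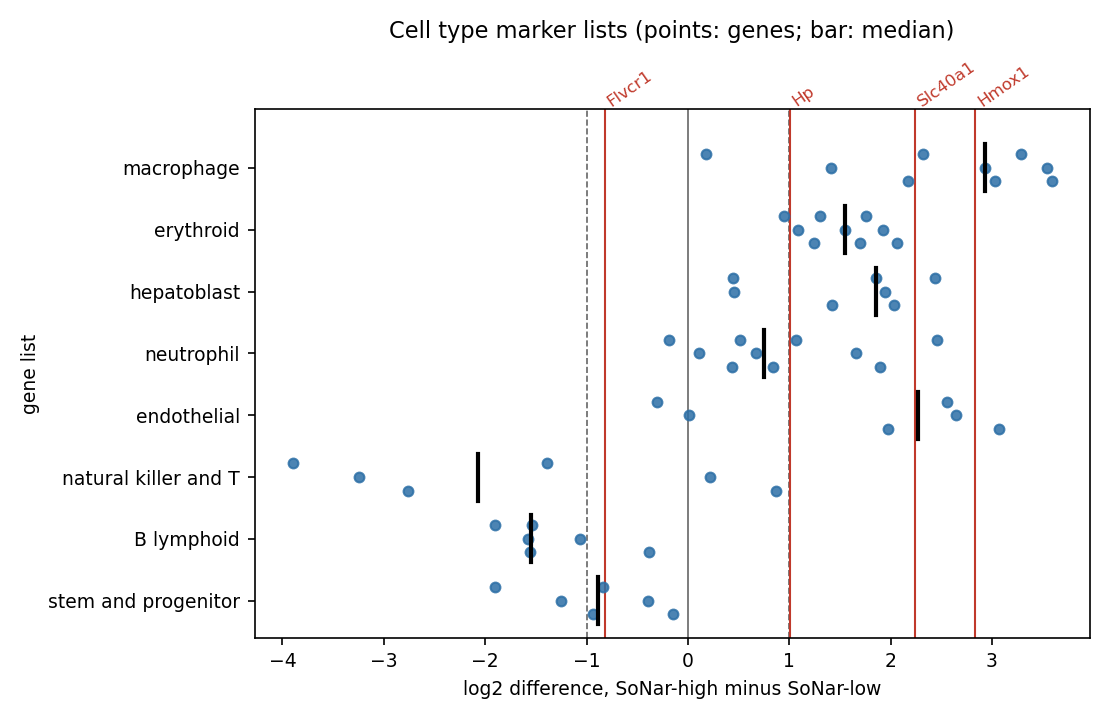
Log2 differences of the measured markers of 8 cell types (points) with each list's median (bar), beside the differences of Hmox1, Slc40a1, Hp and Flvcr1 (red lines) and the 2-fold limits (dashed). Macrophage and endothelial markers lie on either side of Hmox1 and Slc40a1, with 5 and 1 of them above Hmox1. Erythroid markers end at 2.07 below both, and stem and progenitor markers with a median of -0.88 surround Flvcr1.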

How the data were processed

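Spot intensities were deposited by the authors as Agilent Feature Extraction output, in which the processed signal is background-subtracted and detrended for position, per the file headers (version 11.0.1.1; the submitters' processing notes name 9.1). The authors also deposited a table of log2 values, with no statement of how it was normalized in the sources used here. Both columns have a median of 4.80, and the table served as an alternative.

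Control spots were left out, as were outlier spots (225 SoNar-high, 135 SoNar-low). The log2 processed signal minus the array's 75th percentile over 43020 spots was used. Measured probes are those for which, on both arrays, the majority of spots stood well above background and none was saturated. Probes were named through RefSeq accessions (assembly GRCm38.p6, names only, since the array design refers to mm9): 27234 of 39429 probes matched 1 gene and 12195 none. A gene was represented by its brightest measured probe. With 1 array per group, genes were counted by a size of 2-fold, and precision is limited by the number of arrays.

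All 10 genes are named with every probe. Of each other list, the 3 measured genes with the largest absolute difference, the brightest and those with a bound of at least 2-fold on 1 array could be named, and some marker genes are left out for length. Others were added after their values were seen, for their role or to show the range or order of a list. They are Nfe2l2, Tfrc, Nqo1, Cd163, Bmp2, Rhag, Tek, Vcam1, Cd5l, Epor, Cd3e, Ngp and Pecam1. Genes not well above background and the neighbours of Hp were added too. The 10 genes and all lists were chosen with earlier results of these data known. Alternatives were other scalings, quantile normalization, loess (span 0.3), normexp (offset 50, limma 3.58.1, on the median spot signal), the deposited table, outlier spots kept, the median over probes, other filters on dim probes, a 3-fold limit and, added after seeing the data, the signal before multiplicative detrending. The counting rule was tested on simulated data.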

Additional observations from a re-analysis of the deposited data

How the results depend on the processing

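With 1 array per group no replicate could be left out. No paired analysis was possible because each group has 1 sample. Shifts were judged against the spot SD of 0.15 for a value and a ratio of 1.5 for a count. Of the 110 values of the 10 genes under 11 alternatives, 81 stayed within that SD, 29 moved and none at 2-fold changed sign. The 81 include values that could not move. Keeping outlier spots and the other filters on dim probes left all 10 genes at their main value. The median over probes did so for the 6 genes with 1 probe. A percentile or median over detected probes shifts every gene by the same amount, so the alternatives are not separate checks. Only Ftl1 crossed 0, at -0.01 after normexp. Hmox1, Slc40a1 and Hp were at least 2-fold higher under all 11, whereas at a 3-fold limit 2 genes remained. With the percentile taken over detected probes, the median of the 10 genes was 0.61 and the median of all genes moved by 0.18, with 817 genes at least 2-fold higher and 227 lower in place of 540 and 454. Normexp left 251 higher and 257 lower. Without a filter on dim probes 2476 of 20655 genes were higher and 659 lower, and with signals of at least 100 units 329 of 7800 were higher and 314 lower, against 10223 genes under the filter used. At 3-fold 146 were higher and 48 lower. Before multiplicative detrending 1 of the 10 genes, Flvcr1, was at least 2-fold lower. Dim probes such as the second one of Hmox1 and those of Spic, Hpx and Cp are limited by their signal over background.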
